A study of Mus musculus with 768 samples.

Results

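The Gadd45 genes of the mouse mammary gland were followed in single sorted cells: Gadd45a, Gadd45b and Gadd45g, which are 3 of the 23997 gene names in the deposited tables. They were selected on their readout, since their levels by cell class, plate and reporter reads were known beforehand, so these levels are descriptions with no test. Of 768 wells, 617 passed the limits of 50000 reads and 1000 detected genes, namely 73.7% of the 384 N1ICD-EGFP wells and 86.98% of the 384 control wells. In the N1ICD-EGFP group, C57BL/6 mice carried WAP-CRE; R26-N1ICD-EGFP, in which Cre, driven by the Wap milk protein promoter, switches on the intracellular, constitutively active piece of Notch1 together with the reporter EGFP. In the control group, C57BL/6 mice carried WAP-CRE; R26-tdTomato, so that the same Cre switches on the red reporter only. Both groups shared WAP-CRE and a history of lactation for 3 to 4 months, and cells positive for their reporter were sorted from fresh inguinal glands into 1 plate of 384 wells per genotype. Libraries were made by Smart-Seq2, which reads whole transcripts and has no molecular identifiers. The labels name no animals. Each genotype therefore counts as 1 sample, there is no replicate check, and genotype, plate and reporter cannot be told apart.

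GADD45 proteins are small acidic proteins without enzyme activity that act by binding others. They activate the kinase MAP3K4 and with it the stress kinases p38 and JNK, they bind the replication clamp PCNA, the cell cycle inhibitor p21 and the mitotic kinase CDK1, and they help the TET and TDG enzymes in removing DNA methylation. Gadd45a is best known as a p53 target that answers DNA damage, Gadd45b as a target of NF-kB and TGF-beta signalling, and Gadd45g as a gene induced by cytokines and by differentiation.

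The 3 genes lie on different chromosomes and are short, each with 4 exons in its principal transcript. In GENCODE M21 on GRCm38, the assembly behind mm10, Gadd45a spans chr6:67035096-67037457 on the minus strand, Gadd45b spans chr10:80930073-80932204 on the plus strand, and Gadd45g spans chr13:51846678-51848468 on the plus strand. Their principal transcripts measure 1223, 1284 and 1071 bases for Gadd45a, Gadd45b and Gadd45g. The 250 bases before each RefSeq start are shown because N1ICD acts on DNA through the factor RBPJ. The genes also differ in which core promoter letters they hold. RefSeq starts are not the GENCODE gene starts, and the windows of Gadd45a and Gadd45b reach into the GENCODE spans given above. The sequences are from RefSeq on GRCm38.p6, at chr6:67037408-67037657 on the minus strand for Gadd45a, chr10:80929841-80930090 on the plus strand for Gadd45b and chr13:51846425-51846674 on the plus strand for Gadd45g. Capitals mark the CCAAT box CCAAT, the E-box CACGTG and the TATA box TATAAA, each searched on both strands.
Gadd45a: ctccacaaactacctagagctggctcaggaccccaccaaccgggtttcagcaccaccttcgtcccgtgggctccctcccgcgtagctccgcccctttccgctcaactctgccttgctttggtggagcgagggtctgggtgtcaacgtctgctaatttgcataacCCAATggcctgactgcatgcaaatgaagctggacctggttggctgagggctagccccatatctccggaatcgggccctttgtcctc
Gadd45b: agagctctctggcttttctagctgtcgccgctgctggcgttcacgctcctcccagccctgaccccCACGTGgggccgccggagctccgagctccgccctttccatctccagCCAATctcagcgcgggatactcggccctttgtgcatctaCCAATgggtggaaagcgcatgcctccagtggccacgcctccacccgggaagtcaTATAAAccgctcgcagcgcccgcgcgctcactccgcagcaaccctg
Gadd45g: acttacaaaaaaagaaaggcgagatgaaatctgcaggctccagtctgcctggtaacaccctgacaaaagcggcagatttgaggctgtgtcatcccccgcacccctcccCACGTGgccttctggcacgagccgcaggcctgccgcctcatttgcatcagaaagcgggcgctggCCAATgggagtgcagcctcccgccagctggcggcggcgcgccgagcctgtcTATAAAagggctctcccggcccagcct

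All 3 promoters held CCAAT, at -86 in Gadd45a, at -139 and -100 in Gadd45b and at -78 in Gadd45g, where positions give the first base relative to the start; 37.4% of 32851 RefSeq promoters of the same 300-base window hold it. TATAAA stood at -46 in Gadd45b and at -27 in Gadd45g and was not found in Gadd45a, against 13.6% of all promoters. The E-box CACGTG stood at -185 in Gadd45b and at -142 in Gadd45g, against 7.15% of all promoters. The core letters of RBPJ binding, TGGGAA, were found only in the Gadd45g window, 35 bases after the start, and 25.6% of all promoters hold these letters. No window held the AP-1 letters TGANTCA (7.81% of all promoters) or the CRE letters TGACGTCA (1.79%), and the GC box GGGCGG was found in Gadd45a at -163 and in Gadd45b at -158 (35.7%). Such matches are descriptions of letters and not of binding.

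The kept cells held a median of 348469 reads on the N1ICD-EGFP plate and 241888 on the control plate, with medians of 2482 and 3598 detected genes. At least 1 eGFP read was found in 93 N1ICD-EGFP cells, 81 of them with 5 or more, and in 55 control cells, none with more than 2 reads. Since control animals carry no EGFP, the 64 eGFP reads of the control plate against 3095 of the N1ICD-EGFP plate give the level of stray reads. Cells were grouped by clustering each plate without the Gadd45 genes. The joint luminal progenitor/secretory-like class, in which progenitor and milk gene markers were raised together, held 59.7% of N1ICD-EGFP and 71.3% of control cells. Hormone-sensing luminal-like cells numbered 7 and 64, and immune-like cells 48 and 25. A cluster of 59 N1ICD-EGFP cells stayed unnamed, because its 10 leading genes (Nkd2, Col6a1, Col6a2, Mgat3, Krt14 and others) held a basal keratin and no progenitor or milk marker although 7 progenitor markers were raised in it, and 7 control cells were basal-like. When both plates were clustered together, different clusters held most of the luminal progenitor/secretory-like class: 1 cluster took 39.6% of all N1ICD-EGFP and 2.40% of all control cells, and another 1.06% and 35.3%. Levels are in CPM, the usual scaling of a gene's reads to all reads, summed over a group's cells, with exact Poisson 95% intervals. Shares have Clopper-Pearson intervals, and both cover counting error only. The Poisson intervals take each read as independent, but without molecular identifiers copies of 1 molecule cannot be told apart. They do not cover the spread between cells and are too narrow where a few cells hold most reads. A difference is called by size alone where the log2 ratio of CPM plus 1 reaches 1.5-fold at 5 CPM or more in either group.

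Over all kept cells, Gadd45g and Gadd45b stood higher on the N1ICD-EGFP plate and Gadd45a was level in sum. Gadd45g measured 180.6 CPM (177.96 to 183.3) in N1ICD-EGFP cells and 81.7 CPM (79.7 to 83.7) in control cells, a 2.21-fold difference. Gadd45b measured 85.8 CPM (83.98 to 87.7) in N1ICD-EGFP cells and 49.2 CPM (47.7 to 50.8) in control cells, a 1.74-fold difference. Of 12021 genes measured, 22.5% were called higher and 16.7% lower by the same rule, so that calls of this size were common between the plates, and the median of all genes stood at 0.07. Gadd45a measured 49.4 CPM (48.01 to 50.8) in N1ICD-EGFP cells and 49.1 CPM (47.6 to 50.7) in control cells. Its reads were held by fewer N1ICD-EGFP cells after each cell had been thinned to 50000 reads. A read was then found in 18.02% (13.7 to 23.004) of them against 36.2% (31.1 to 41.6) of control cells. Without thinning the shares were 22.97% and 40.7%. Fewer genes in general were detected in N1ICD-EGFP cells, with medians of 2075 and 3103.5 genes after thinning. The part of this in the Gadd45a share was not tested. The sum of Gadd45a depended on the wells used, with 31.2 CPM in N1ICD-EGFP cells and 54.4 CPM in control cells in well columns 1 to 12, and 68.1 and 42.2 CPM in columns 13 to 24. Per 1000 bases of transcript, Gadd45g was the highest member on both plates, at 168.6 CPM per kb in N1ICD-EGFP cells and 76.3 CPM per kb in control cells. Gadd45b followed with 66.8 and 38.3 CPM per kb and Gadd45a with 40.4 and 40.2 CPM per kb.

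**Figure D1:**
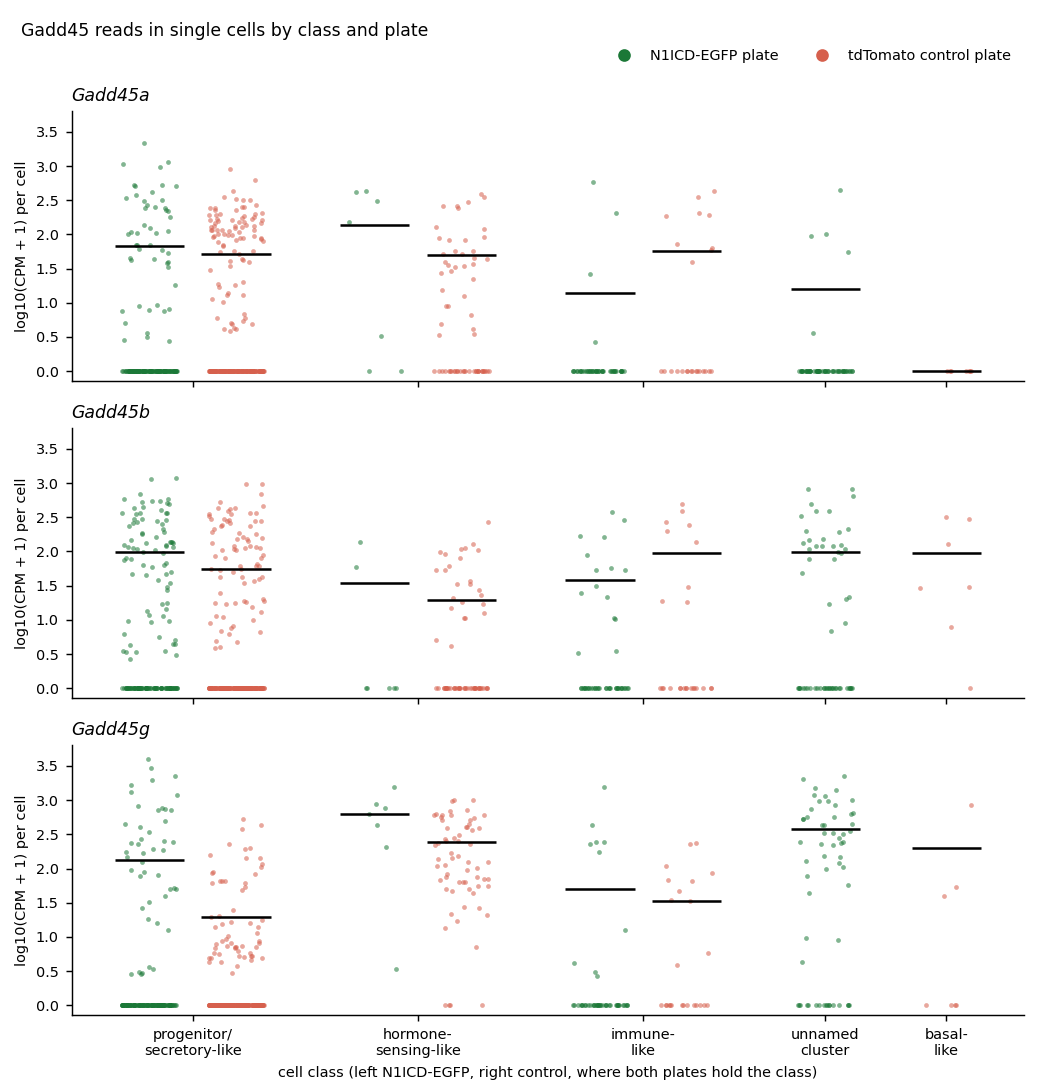
Each point is 1 kept cell; the vertical axis is log10 of CPM plus 1 and black bars mark the CPM of the summed reads of the group. N1ICD-EGFP cells (green) stand left of control cells (red); most cells hold no read of a given member, and Gadd45g reaches 3944 CPM in an N1ICD-EGFP luminal progenitor/secretory-like cell against at most 529 CPM in a control cell of that class.

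Within luminal progenitor/secretory-like cells the plates differed most in Gadd45g among the 3 genes. It measured 134.2 CPM (131.3 to 137.2) in N1ICD-EGFP cells and 18.5 CPM (17.4 to 19.7) in control cells, a 7.25-fold difference and a log2 ratio of 2.79. In this class 22.7% of 11394 genes were called higher and 16.5% lower, the median of all genes stood at 0.10, and 1.57% of genes had a higher ratio than Gadd45g. Single N1ICD-EGFP cells lay between 0 and 3944 CPM with a median of 0, and single control cells between 0 and 529 CPM with a median of 0, so the 2 groups overlapped. A Gadd45g read was found in 27.2% of N1ICD-EGFP and 25.6% of control cells, or in 21.9% (15.9 to 28.9) and 16.4% (11.9 to 21.7) after thinning. These shares depended on the wells, with 24.1% and 11.97% in columns 1 to 12 after thinning. They were 19.8% and 20.7% in columns 13 to 24. An alternative took cells with a read of Kit, Elf5 or Csn2 and no read of Ptprc or Prlr. It kept fewer control than N1ICD-EGFP cells. A Gadd45g read after thinning was then found in 35.2% of N1ICD-EGFP and 19.2% of the 73 control cells. Within the class as clustered, the amount in cells with a Gadd45g read differed too. Their median was 180 CPM in 46 N1ICD-EGFP cells and 10.5 CPM in 61 control cells. Only 1 to 3 reads were present in 6 of these 46 N1ICD-EGFP cells and in 38 of the 61 control cells. For Gadd45a such cells numbered 9 of 51 and 19 of 92, and for Gadd45b 13 of 83 and 17 of 83. At 100 CPM or more of Gadd45g stood 15.98% (10.8 to 22.4) of N1ICD-EGFP cells and 4.62% (2.33 to 8.12) of control cells, and at 1000 CPM or more 7 cells, or 4.14%, and 0 cells, for which the Clopper-Pearson interval reaches 1.54% of the control cells.

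**Figure D2:**
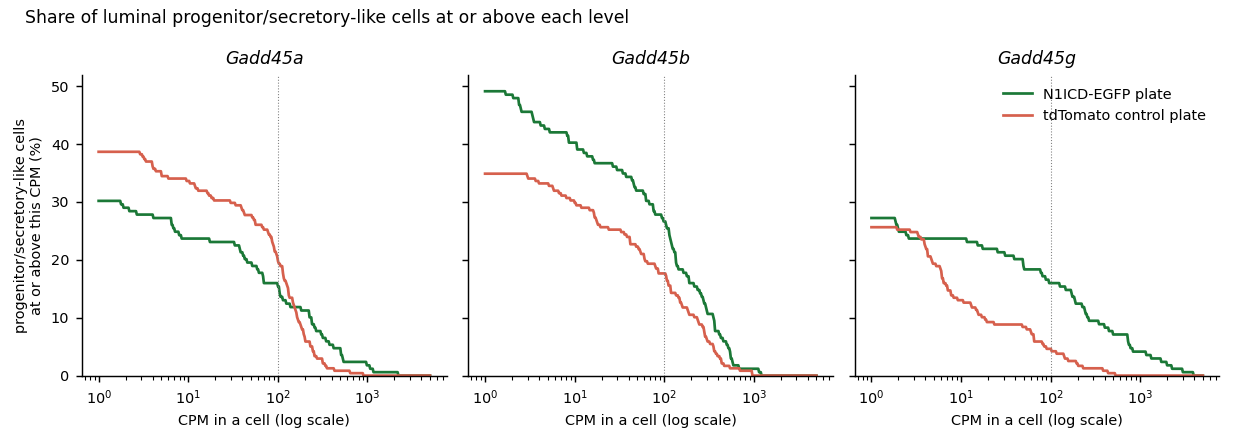
Share of luminal progenitor/secretory-like cells (vertical axis, percent) at or above each level in CPM (horizontal log axis), green for N1ICD-EGFP and red for control cells. The curves of Gadd45g start together near 27.2% and 25.6% and part above a few CPM; those of Gadd45b stay apart, and those of Gadd45a cross between 100 CPM, marked by the dotted line, and 300 CPM.

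A few cells carried much of the Gadd45g sum. The top cell held 18.8% and the top 5 cells 51.6% of the reads in N1ICD-EGFP luminal progenitor/secretory-like cells, while the top control cell held 24.5%. Without the 5 cells with most reads in each group the levels were 66.8 CPM in N1ICD-EGFP and 6.64 CPM in control cells. In well columns 1 to 12 Gadd45g stood at 149.4 and 16.5 CPM in N1ICD-EGFP and control cells, and in columns 13 to 24 at 119.4 and 20.8 CPM. By cluster, Gadd45g ranged between 41.9 and 186.4 CPM over the 4 N1ICD-EGFP clusters of the class and between 8.79 and 60.2 CPM over the 5 control clusters, so the clusters' ranges overlapped. When both plates were clustered together, Gadd45g measured 140.5 CPM in N1ICD-EGFP and 18.7 CPM in control cells of the class.

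Other measures moved with this class. Its secretory markers summed to 11116 CPM in N1ICD-EGFP and 44108 CPM in control cells, its progenitor markers to 3303 and 4249 CPM, and its median of detected genes was 2416 and 3420; their part in the difference was not tested. The 27 N1ICD-EGFP cells at 100 CPM or more of Gadd45g (a limit chosen after the values were seen) summed to 674 CPM of the 10 hormone-sensing markers, with 4 at 0 (Foxa1, Cited1, Prom1 and Areg), against 106.05 CPM in the rest of the class. Of that sum 561 CPM were Ly6a, which encodes a surface antigen also found on immune and stem cells, and Prlr, the prolactin receptor, stood at 4.44 CPM against 55.98 CPM. The median cell had 0 CPM of these markers in both sets, with ranges of 0 to 7394 CPM and 0 to 2900 CPM. Basal markers summed to 970 CPM in the 27 cells and 212.2 CPM in the rest. Of 9 basal markers, 8 were read in the 27, all but Trp63, and all 9 in the rest. The median cell had 0 CPM of basal markers in both sets, with up to 20850.5 and 24316.7 CPM in a single cell. Fibroblast markers summed to 4449 and 12.3 CPM, with up to 51677 CPM in a single cell. Without cells at 1000 CPM or more of fibroblast markers Gadd45g measured 133.01 CPM in N1ICD-EGFP and 18.7 CPM in control cells. In the 11 control cells at 100 CPM or more, hormone-sensing markers summed to 88.7 CPM, against 215.04 CPM in the rest. Basal markers summed to 100.5 CPM in these control cells against 79.5 CPM in the rest. Fibroblast markers went the other way from the N1ICD-EGFP cells, at 131.8 against 677.3 CPM.

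Gadd45b was also higher in N1ICD-EGFP luminal progenitor/secretory-like cells, more by number of cells than by amount per cell. It measured 98.4 CPM (95.9 to 101.002) in N1ICD-EGFP and 54.9 CPM (52.96 to 56.97) in control cells, a 1.79-fold difference. Single cells lay between 0 and 1205 CPM and between 0 and 965 CPM, both with a median of 0 and overlapping. A read was found in 42.01% (34.5 to 49.8) of N1ICD-EGFP and 29.8% (24.1 to 36.1) of control cells after thinning, with intervals that just overlap, and in 49.1% and 34.9% without it. The median of cells with a read was 113.96 CPM in 83 N1ICD-EGFP cells and 104.8 CPM in 83 control cells. Gadd45b was highest in 27 cells of an N1ICD-EGFP cluster led by Ltf, Csn2 and Alox12e, at 163.998 CPM with a read in 81.5% of cells. That cluster had the lowest Gadd45g of the class on its plate, 41.9 CPM, and a median of 3880 detected genes against 2416 in the class. Over the 4 N1ICD-EGFP clusters Gadd45b spanned 61.9 to 163.998 CPM, and over the 5 control clusters 28.2 to 87.9 CPM, so they overlapped.

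Gadd45a differed little in sum and in the opposite sense in share. In luminal progenitor/secretory-like cells it measured 67.5 CPM (65.4 to 69.6) on the N1ICD-EGFP plate and 50.4 CPM (48.5 to 52.3) on the control plate, under the 1.5-fold limit. Reads were found in 23.7% (17.5 to 30.8) of N1ICD-EGFP and 34.5% (28.4 to 40.9) of control cells after thinning, with intervals that overlap. Cells of this class had fewer detected genes in general on the N1ICD-EGFP plate, with medians of 2416 and 3420. The part of this in the Gadd45a share was not tested. At 300 CPM or more stood 7.69% of N1ICD-EGFP and 2.94% of control cells. A single N1ICD-EGFP cell at 2207 CPM held 21.9% of the Gadd45a reads, and without the 5 top cells of each group the levels were 37 and 36.3 CPM. Well columns 1 to 12 gave 37.35 CPM in N1ICD-EGFP and 53.2 CPM in control cells, and columns 13 to 24 gave 96.9 and 47.1 CPM, a 2.06-fold difference. Per 1000 bases, the order in N1ICD-EGFP cells of the class was Gadd45g (125.3 CPM per kb), Gadd45b (76.6) and Gadd45a (55.2). In control cells it was Gadd45b (42.8 CPM per kb), Gadd45a (41.2) and Gadd45g (17.3), with counting intervals that overlap between Gadd45b and Gadd45a.

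**Figure D3:**
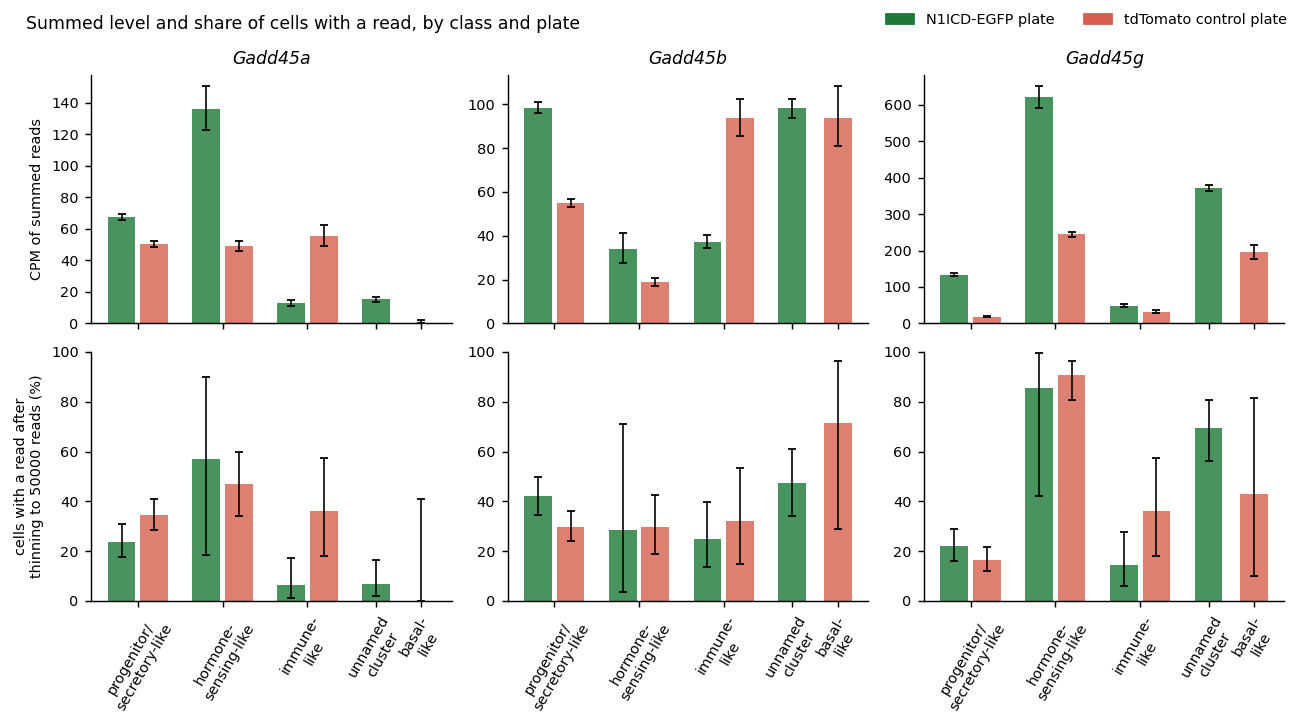
CPM of summed reads with exact Poisson 95% intervals (top) and percent of cells with a read after thinning to 50000 reads with Clopper-Pearson 95% intervals (bottom), by class; green bars are N1ICD-EGFP, red bars control. In hormone-sensing luminal-like cells Gadd45g stands at 621 and 245.4 CPM, the highest of the classes on either plate.

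Hormone-sensing luminal-like cells, the class marked by prolactin, progesterone and oestrogen receptors, held the highest Gadd45g of any class on both plates. The 7 N1ICD-EGFP cells had 2.40, 208.8, 430, 634, 767, 867 and 1533 CPM. They summed to 621 CPM (592 to 651), against 245.4 CPM (238.7 to 252.3) in the 64 control cells. Single control cells lay between 0 and 1020 CPM and overlapped the N1ICD-EGFP cells, and 60 of the 64, or 93.8%, had a read. Over luminal progenitor/secretory-like cells of the same plate, hormone-sensing cells were 4.63-fold higher on the N1ICD-EGFP plate and 13.3-fold higher on the control plate. Of all Gadd45g reads, hormone-sensing cells held 9.80% on the N1ICD-EGFP plate and 76.6% on the control plate, and they made up 2.47% and 19.2% of the cells. Without them Gadd45g measured 167.7 CPM in N1ICD-EGFP and 25.6 CPM in control cells, a log2 ratio of 2.66. Without the unnamed cluster it measured 132.9 and 81.7 CPM, a log2 ratio of 0.70, the lowest of the alternatives over all cells. The unnamed cluster held another 41.1% of Gadd45g reads on the N1ICD-EGFP plate.

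The other members differed in this order of classes. Gadd45b was lower in hormone-sensing than in luminal progenitor/secretory-like cells on both plates, at 33.9 against 98.4 CPM in N1ICD-EGFP cells and 18.7 against 54.9 CPM in control cells. In N1ICD-EGFP hormone-sensing cells only 2 of 7 had a Gadd45b read, at 57.99 and 134.6 CPM. Gadd45a measured 135.8 CPM (122.5 to 150.2) in the 7 N1ICD-EGFP and 49.1 CPM (46.1 to 52.2) in the 64 control hormone-sensing cells. It was 2.01-fold the 67.5 CPM of luminal progenitor/secretory-like cells on the N1ICD-EGFP plate, where hormone-sensing cells ranked first, and level with their 50.4 CPM on the control plate. Single N1ICD-EGFP values of Gadd45a were 0, 0, 2.28, 148.8, 311.5, 415 and 430 CPM, while control cells reached 388 CPM, so they overlapped.

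The unnamed N1ICD-EGFP cluster came second in Gadd45g on its plate. It measured 371.4 CPM (362.9 to 380.1), 2.77-fold the level of luminal progenitor/secretory-like cells of that plate, and 71.2% of its 59 cells had a read. Its single cells lay between 0 and 2247 CPM with a median of 216.4 CPM. Gadd45b was level with that class, at 98.1 against 98.4 CPM, and Gadd45a was lower, at 15.2 against 67.5 CPM, with 5 cells that had a read. Milk markers summed to 1406 CPM in this cluster, basal markers to 711 CPM and hormone-sensing markers to 81.3 CPM with Esr1, Foxa1 and Tnfsf11 at 0. Each plate was clustered on its own, so this cluster could hold no control cell. When both plates were clustered together, 51 of its 59 cells joined a cluster of 71 N1ICD-EGFP and 0 control cells. A cell type and the plate therefore cannot be told apart. With the unnamed cluster added to the luminal progenitor/secretory-like class, Gadd45g measured 193.8 CPM in N1ICD-EGFP cells against 18.5 CPM in control cells. Of these cells, 34.2% against 16.4% had a read after thinning.

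In immune-like cells the members went other ways. Gadd45a measured 12.8 CPM in 48 N1ICD-EGFP and 55.5 CPM in 25 control cells, and Gadd45b 37.2 and 93.7 CPM. Gadd45g measured 48.9 and 32.2 CPM, 1.52-fold. The classes differed in make-up, since the N1ICD-EGFP cells comprised 25 led by B cell genes such as Cd79a and Ms4a1, 15 led by macrophage genes such as C1qb and Csf1r, and 8 led by T cell genes such as Cd3g, while the 25 control cells formed 1 cluster led by MHC class II genes. Within N1ICD-EGFP immune-like cells Gadd45b was 79.4 CPM in the macrophage-gene cluster and 9.99 CPM in the B-cell-gene cluster, and no read was found in the T-cell-gene cluster. The 7 basal-like control cells had 0 Gadd45a reads; the Clopper-Pearson interval for the share of such cells with a read reaches 40.96%, and cells that express the gene without a read are not covered by it. Their Gadd45b measured 93.8 CPM (80.9 to 108.2). Ordered by level on the N1ICD-EGFP plate, Gadd45g ran from hormone-sensing over unnamed and luminal progenitor/secretory-like to immune-like cells. No neighbours overlapped in their counting intervals, but all 7 hormone-sensing cells lay within the range of the unnamed cells. These intervals do not cover the spread between cells, so they do not settle the order of classes. On the control plate Gadd45g ran from hormone-sensing over basal-like and immune-like to luminal progenitor/secretory-like cells. Its counting intervals again did not overlap, but 1 cell held 93.1% of the basal-like reads. Gadd45b was level in luminal progenitor/secretory-like and unnamed cells and in immune-like and hormone-sensing cells on the N1ICD-EGFP plate, and in basal-like and immune-like cells on the control plate, each pair with overlapping intervals. Gadd45a in control immune-like, luminal progenitor/secretory-like and hormone-sensing cells overlapped between neighbours.

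A split at 100 CPM of Prlr, chosen after the values were seen, used no clusters. In cells at or over it, Gadd45g measured 171.96 CPM in 31 N1ICD-EGFP cells (10.95% of the plate) and 150.08 CPM in 37.4% of control cells. In cells under it, Gadd45g measured 181.7 CPM in N1ICD-EGFP and 30.3 CPM in control cells, a 6.00-fold difference. Gadd45b measured 72.8 and 25.5 CPM at or over it and 87.5 and 67.1 CPM under it. Gadd45a measured 78.3 and 47.3 CPM at or over it, 1.66-fold, and 45.7 and 50.5 CPM under it. The cells at or over the split mix classes, since the N1ICD-EGFP plate held 7 hormone-sensing luminal-like cells and the control plate 64. The part of this make-up in the levels was not tested.

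Cells of the N1ICD-EGFP plate were split at 1 eGFP read, which marks the reporter only as far as depth allows, since a cell without such a read may still express it. In luminal progenitor/secretory-like cells of the N1ICD-EGFP plate, Gadd45a was lower in the 61 cells with an eGFP read, 36.1% of the class, at 31.1 CPM (28.9 to 33.4) against 93.6 CPM (90.4 to 96.9) in those without. Shares of cells differed less than this 3.01-fold difference in sum: 21.3% and 25% had a read after thinning. Without thinning, the cells with a read had medians of 24.9 and 223.1 CPM. More cells with few reads in 1 set would lower its median, which was not tested. Of 11458 genes, 29.2% were called lower and 19.6% higher in eGFP-read cells, with a median of -0.10. Gadd45b measured 81.8 and 110.3 CPM, under the 1.5-fold limit. Gadd45g measured 179.5 CPM (174.25 to 184.96) in eGFP-read and 101.8 CPM (98.4 to 105.2) in eGFP-unread cells, but without the 5 top cells of each group it measured 29.4 and 41.6 CPM, the opposite direction. Shares of cells with a Gadd45g read were 26.2% (15.8 to 39.1) and 19.4% (12.5 to 28.2) after thinning. In the unnamed cluster Gadd45g measured 346.2 CPM in 31 eGFP-read and 413 CPM in 28 eGFP-unread cells. All Gadd45a reads of that cluster lay in eGFP-read cells, 65.8% of them in 1 cell. In control cells of the luminal class, where eGFP reads are stray, Gadd45g measured 6.54 CPM in 51 cells with and 22.3 CPM in the cells without such a read.

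**Figure D4:**
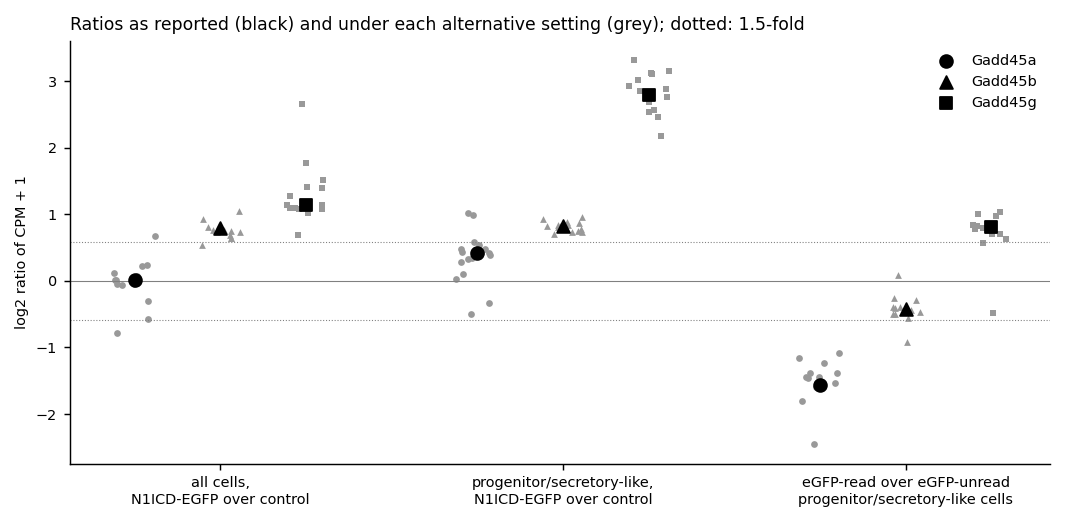
Log2 ratio of CPM plus 1 for each member in 3 comparisons: black marks are the values as reported and grey marks those under each alternative, with dotted lines at 1.5-fold. Gadd45g in luminal progenitor/secretory-like cells stays between 2.17 and 3.32, while Gadd45a in that class runs from -0.50 to 1.03.

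Co-occurrence of the members was counted per cell. In luminal progenitor/secretory-like cells after thinning, all 3 had a read in 1.18% of N1ICD-EGFP and 2.10% of control cells, exactly 2 in 18.3% and 14.7%, exactly 1 in 47.3% and 44.96%, and none in 33.1% and 38.2%. Gadd45a and Gadd45b met in 19 and 22 cells, Gadd45b and Gadd45g in 14 and 13, and Gadd45a and Gadd45g in 4 and 15. In control hormone-sensing cells all 3 met in 14.1% and exactly 2 in 45.3% of the 64 cells. Pearson's r of log2(CPM + 1) between pairs of members over cells of the luminal class lay between -0.08 and 0.08 on both plates. Among 4885 genes read in at least 20% of these cells on each plate, the genes most like Gadd45b by the mean of the 2 plates' r were Palld (0.24), Celf2 (0.23), Dusp1 (0.22), Lgalsl (0.21) and Clk1 (0.21). Those most like Gadd45g were Wfdc2 (0.22), Capza2 (0.21), Tmem256 (0.20), Mrps24 (0.20) and Tnip2 (0.19), and those most like Gadd45a were Bmpr1a (0.18), Tulp4, Pitpnc1, Hmgb2 and Rbm5 (each 0.17). These are weak values over cells that share a plate and differ in depth, and some means rest mostly on 1 plate. Tnip2 had r of 0.07 in N1ICD-EGFP and 0.31 in control cells, and Lgalsl 0.32 and 0.10. Wfdc2 was more even, with 0.26 and 0.18. Gadd45b itself had r of 0.27 and 0.17 with the number of genes per cell.

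The partners and regulators of GADD45 proteins were read from lists, within luminal progenitor/secretory-like cells. Of the 11 kinases downstream of GADD45, 4 were called higher and 2 lower, with a median log2 ratio of 0.23. Mapk13, which encodes the p38 delta kinase, measured 380 CPM in N1ICD-EGFP and 161.9 CPM in control cells. Map3k4, the kinase that GADD45 proteins bind directly, measured 55.2 and 34.1 CPM, while Mapk9, encoding JNK2, measured 37.1 and 103.5 CPM and its activator Map2k4 58.3 and 94.2 CPM. Of 4 measured cell cycle and repair partners 1 was called higher and none lower (median 0.11): Gadd45gip1, whose product binds GADD45 proteins, measured 39.4 and 28.04 CPM, and Pcna 43.02 and 51.4 CPM, both under the limit. The called one was Cdkn1a, encoding p21, at 37.9 and 24.3 CPM, named here after its value was seen. Among 7 DNA demethylation genes none was called higher and 1 lower (median -0.21), namely Ing1, a chromatin reader, at 10.5 and 23.7 CPM, and Tet3, a methylcytosine oxidase, stood at 54.7 and 50.3 CPM.

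Of 13 known regulators of Gadd45 genes 2 were called higher and none lower (median 0.18). Foxo4, a stress-responsive forkhead factor, measured 21.7 CPM in N1ICD-EGFP and 7.02 CPM in control cells, and Myc, which represses Gadd45a in other settings, 244.4 and 130.4 CPM. Smad4, the shared mediator of TGF-beta signals, measured 59.1 and 85.9 CPM. Of 19 p53 targets 7 were called higher and 5 lower (median -0.24): Plk2, a stress-induced kinase, measured 131.3 and 70.5 CPM and the adhesion gene Perp 209.7 and 115.9 CPM, while Trp53inp1, a p53 cofactor in stress, measured 52.97 and 193.6 CPM and Mdm2, the ubiquitin ligase of p53, 47.7 and 73.2 CPM. Of 23 immediate early genes, which also answer tissue dissociation, 8 were called higher and 3 lower (median 0.41). Klf4 measured 308.6 and 111.9 CPM and Socs3, a cytokine feedback inhibitor, 199.04 and 82.1 CPM, while Klf6 measured 260 and 439 CPM and the heat shock gene Hspa1b 3.94 and 15.1 CPM. Of 13 ATF4 and unfolded protein genes none was called higher and 6 lower (median -0.34), among them Dnajb9, an endoplasmic reticulum chaperone, at 59.3 and 113.3 CPM and Cebpb at 170.9 and 268.3 CPM. Of 6 measured Notch targets 4 were called higher and none lower (median 0.99), but with the mean of per-cell CPM 3 were called and the median was 0.56, under the limit. Hes1, a repressor of transcription, measured 618 and 218.8 CPM and the feedback inhibitor Nrarp 78.8 and 31.2 CPM, while Hey1 measured 393 and 584 CPM. These counts stand beside 22.7% called higher and 16.5% called lower over all genes.

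**Figure D5:**
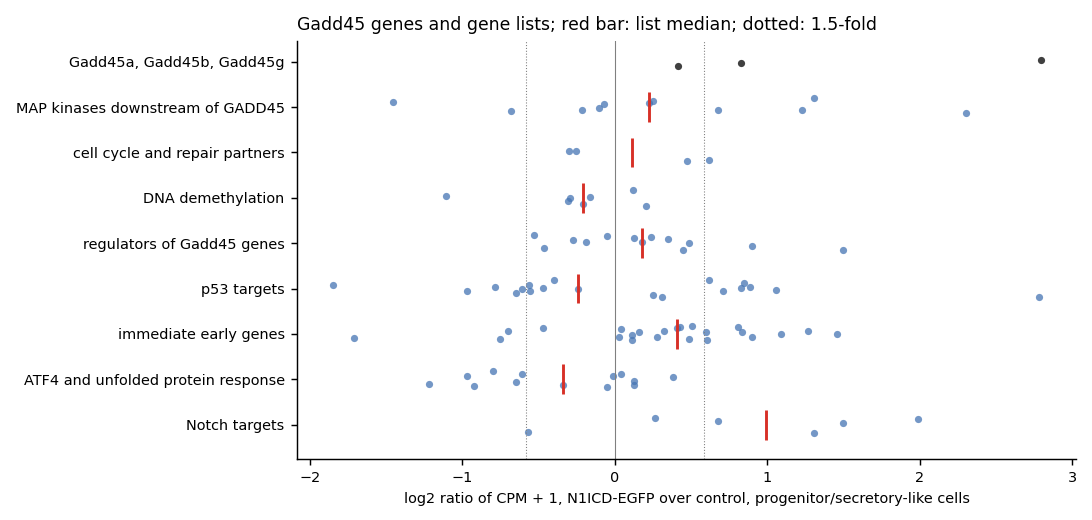
Log2 ratio of CPM plus 1, N1ICD-EGFP over control, in luminal progenitor/secretory-like cells (horizontal axis) for the Gadd45 genes (black) and for the measured members of 8 lists (blue), with list medians in red and 1.5-fold limits dotted. The Notch target list has the highest median, 0.99, and the ATF4 list the lowest, -0.34; Gadd45g stands at 2.79.

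Wells under the limits on reads and genes were too shallow for levels by cell. Summed, Gadd45g measured 32.3 CPM (24.03 to 42.4) from 51 reads in N1ICD-EGFP wells and 17.9 CPM (11.4 to 26.6) from 24 reads in control wells, with overlapping intervals. Gadd45b measured 51.9 and 73.7 CPM, with 93.9% of its N1ICD-EGFP reads in 1 well, and Gadd45a 5.696 and 6.70 CPM.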

How the data were processed

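Smart-Seq2 libraries of 768 single mammary cells, 2 plates of 384, were analysed. The authors deposited raw read counts per gene and cell, whole numbers without molecular identifiers. The submitters' processing notes name STAR and mm10; the sources used here do not name their versions, the counter, the annotation or strand use. The 492 rows with a repeated name were added to the row of that name. Kept cells had at least 50000 reads and 1000 genes, with 51736 to 615615 reads on the N1ICD-EGFP plate and 50048 to 608476 on the control plate. No doublets were called; an alternative left out cells with many genes.

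Each plate was clustered on its own (scanpy 1.11.5, Leiden 0.10.2, 2000 variable genes, 15 components, 15 neighbours, resolution 0.8) without the Gadd45 genes and eGFP. Clusters took the name of the marker class with the most raised genes, 3 or more, unless more of another class's markers than of its own were among the 10 leading genes. Reads were summed by group and scaled to CPM; log2 ratios add a pseudocount of 1. With 1 sample per group no test was made and no p-value computed. Calculations used Python 3.11.15, numpy 2.4.6, pandas 2.3.3 and scipy 1.17.1, and were checked on simulated data.

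The members, lists, markers and the naming rule were chosen with earlier results of these data known. Named genes are the members, up to 2 genes per list and direction with the largest ratio at 5 CPM or more and a read in at least 20% of cells of the higher group, and the 5 genes most like each member. Repeated, paralogous or antisense reads cannot be separated here.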

Additional observations from a re-analysis of the deposited data

Results flagged for a closer look

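In the 7 basal-like control cells Gadd45g stood at 841 CPM in 1 cell, far from the others, which had at most 52.9 CPM. In the 7 N1ICD-EGFP hormone-sensing luminal-like cells Gadd45b stood at 134.6 CPM in 1 cell, with 57.99 CPM in the next and 0 in the rest. The limit used sets 1 value apart in about 1 in 20 groups of replicates with a normal spread. These are single cells of 1 plate, many at 0, for which that rate need not hold, and 5 groups of 7 cells were looked at.

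The direction between plates differed between classes for both Gadd45a and Gadd45b; these differences were not tested. The Gadd45a log2 ratio was 1.45 in hormone-sensing luminal-like and -2.03 in immune-like cells. The Gadd45b log2 ratio was 0.83 in luminal progenitor/secretory-like and 0.82 in hormone-sensing luminal-like cells and -1.31 in immune-like cells. Clustered plate by plate, B cell, macrophage and T cell gene clusters were present on the N1ICD-EGFP plate and not set apart on the control plate. With both plates clustered together, immune-like clusters held 19, 21 and 8 N1ICD-EGFP cells beside 10, 3 and 10 control cells.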

How the results depend on the processing

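The call by size changed in 2 of 14 alternatives for Gadd45a over all cells, 2 of 17 in luminal progenitor/secretory-like cells, 1 of 14 for Gadd45b over all cells, and 2 of 12 for Gadd45g and 1 of 12 for Gadd45b by eGFP reads. Gadd45g in luminal progenitor/secretory-like cells stayed between 2.17 and 3.32 and Gadd45b between 0.71 and 0.95, over 17 alternatives each. Over all cells Gadd45a was -0.78 in well columns 1 to 12 and 0.68 in columns 13 to 24, and Gadd45b was 0.54 without hormone-sensing luminal-like cells, an alternative added after the data were seen. In luminal progenitor/secretory-like cells Gadd45a was 1.03 in well columns 13 to 24. It was 0.998 in cells with a read of Kit, Elf5 or Csn2 and no read of Ptprc or Prlr. This rule on reads left 73 control cells. Between eGFP-read and eGFP-unread cells, Gadd45b was -0.92 in columns 13 to 24, and Gadd45g was -0.49 without the 5 cells with most reads in each group and 0.57 together with the unnamed cluster. The cause was not tested. Among cells chosen by that rule on reads, 30.2% of N1ICD-EGFP and 6.85% of the 73 control cells had 100 CPM or more of Gadd45g. With the stricter cell filter Gadd45a had a log2 ratio of -0.32 in the luminal class and -0.57 over all cells. In well columns 1 to 12 it was -0.50 in the luminal class. These values lay under the 1.5-fold limit and count as the same call, although their sign changed. Of 48 alternatives of list medians 45 had the same call; with the mean of per-cell CPM the Notch target median was 0.56 in the luminal class and 0.52 over all cells, and the cell cycle and repair median over all cells was 0.60 with genes at 1 CPM or more. Gadd45g over all cells lay between 0.70 and 2.66. No paired analysis was possible because each genotype is 1 plate and wells with the same number do not belong together. With 1 sample per genotype, counting intervals say nothing of the spread between animals.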
